A study of Mus musculus with 9 samples.

Results

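The genes described here are 10 collagens of the interstitial matrix, Col1a1, Col1a2, Col3a1, Col5a1, Col5a3, Col6a3, Col8a1, Col12a1, Col14a1 and Col15a1. They were taken by gene name from mouse expression arrays, where 25 of 56605 probes carry these names, and they make up 10 of the 24154 features tested. RNA came from the glomeruli, which filter blood in the kidney, of male BTBR mice aged 22 weeks, and magnetic beads were used to isolate them. There were 3 arrays in each of 3 groups. The first group is ob/ob mice, which have no working leptin, given food with enarodustat for 18 weeks. The second is ob/ob mice on vehicle food for the same time. The third is wild-type mice on vehicle food. Enarodustat is an inhibitor of prolyl hydroxylases, the enzymes through which hypoxia-inducible factor (HIF) is tagged and degraded. It was given to ob/ob mice alone, so the drug contrast lies within that genotype. Whether a sample is 1 mouse or a pool is not stated in the labels, and p-values measure the spread between these samples only.

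Collagens are secreted proteins of 3 chains wound into a triple helix, which needs a small glycine at a fixed step along each chain. Types I, III and V form banded fibrils, types XII and XIV lie on the surface of such fibrils, type VI forms beaded filaments, type VIII forms sheet-like networks and type XV sits at the edge of basement membranes. In a healthy glomerulus the matrix is mostly of the basement membrane kind, and fibrillar collagens gather there in scarring disease. Collagen chains are hydroxylated by their own prolyl and lysyl hydroxylases, relatives of the enzymes that enarodustat inhibits.

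The glycine step can be read in the array itself. A run of at least 4 glycine codons (GGN), each 9 bases after the last, is present in 4 of the 25 probes. Among probes of 60 bases, it is in 7 of 90 for all collagen genes, those described here included (7.78%). For genes that are not collagens it is in 29 of 45836 (0.0633%). The 4 probes are shown because they carry the repeat that defines the family, with the glycine codons of the run in capitals.
Col14a1: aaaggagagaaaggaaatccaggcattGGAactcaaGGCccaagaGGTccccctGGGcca
Col15a1: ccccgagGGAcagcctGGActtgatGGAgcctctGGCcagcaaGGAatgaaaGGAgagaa
Col6a3: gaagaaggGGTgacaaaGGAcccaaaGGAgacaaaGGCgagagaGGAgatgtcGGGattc
Col5a3: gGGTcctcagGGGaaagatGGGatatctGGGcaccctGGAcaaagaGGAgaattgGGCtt
In the mm9 coordinates of the file headers, the Col14a1 probe is at chr15:55347733-55347792 (plus strand) and the Col15a1 probe at chr4:47283786-47283845 (plus strand). Both supply the values of their gene below. The Col6a3 probe, at chr1:92689602-92690594 (minus strand), and the Col5a3 probe, at chr9:20590066-20590795 (minus strand), have 60 bases spread over 993 and 730 bases of the genome, so each of them crosses a gap between exons. Exon numbers and the place of the other probes in the transcript are not given in the sources used here.

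Each value is a log2 signal from which the array's 75th percentile (210.4 to 325.3 units) was subtracted. Between 62.3% and 68.3% of the probes of an array were well above background, and no spot was saturated. A gene was read from its brightest probe among those that stood well above background on all 3 arrays of a group. The errors are the SD over 3 arrays for a group mean and the SE of a limma fit to all 9 arrays for a log2 change, and a gene is called at an adjusted p under 0.05. With 3 arrays a group, the precision is limited. As a check of the tissue, the log2 of the summed level of 10 markers of the glomerular endothelium was 8.62 to 8.71 with enarodustat, 8.70 to 8.77 in ob/ob vehicle glomeruli and 8.53 to 8.71 in wild-type glomeruli. That of 10 podocyte markers was lower in both ob/ob groups, at 9.39 to 9.73 with enarodustat, 9.61 to 9.97 with vehicle and 10.14 to 10.28 in wild type. Markers of the proximal tubule stood apart on some arrays. Their summed level on the same scale was 7.31 in enarodustat replicate 2 and 8.99 in wild-type replicate 3, was 1.85 in ob/ob vehicle replicate 3, and lay between 4.06 and 5.48 on the other 6 arrays.

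In ob/ob vehicle glomeruli set against wild-type glomeruli, which asks how the ob/ob genotype differs in these genes, 9 of the 10 collagens were called. The share called among all features was 7.54%. The 10 genes were chosen with earlier results of these data known, so this share gives a scale and the count is not a test of collagens as a family. The collagens Col3a1, Col5a1, Col5a3, Col6a3, Col8a1, Col12a1 and Col14a1 were higher (7, where 4.88% of all features were called higher), and Col1a2 and Col15a1 were lower (2, where 2.66% were called lower). The median log2 change was 1.64 over the 10 genes and 0.02 over all features. The 3 values of each group did not overlap for 9 of the collagens, and this held for 30.7% of all features. The same 9 genes had separate groups and passed the test in enarodustat glomeruli against the same wild-type arrays. There 10.2% of all features were called, 6.11% higher and 4.09% lower, and the groups did not overlap for 30.8%. Between enarodustat and vehicle within ob/ob glomeruli no collagen was called, as described after the single genes.

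**Figure D1:**
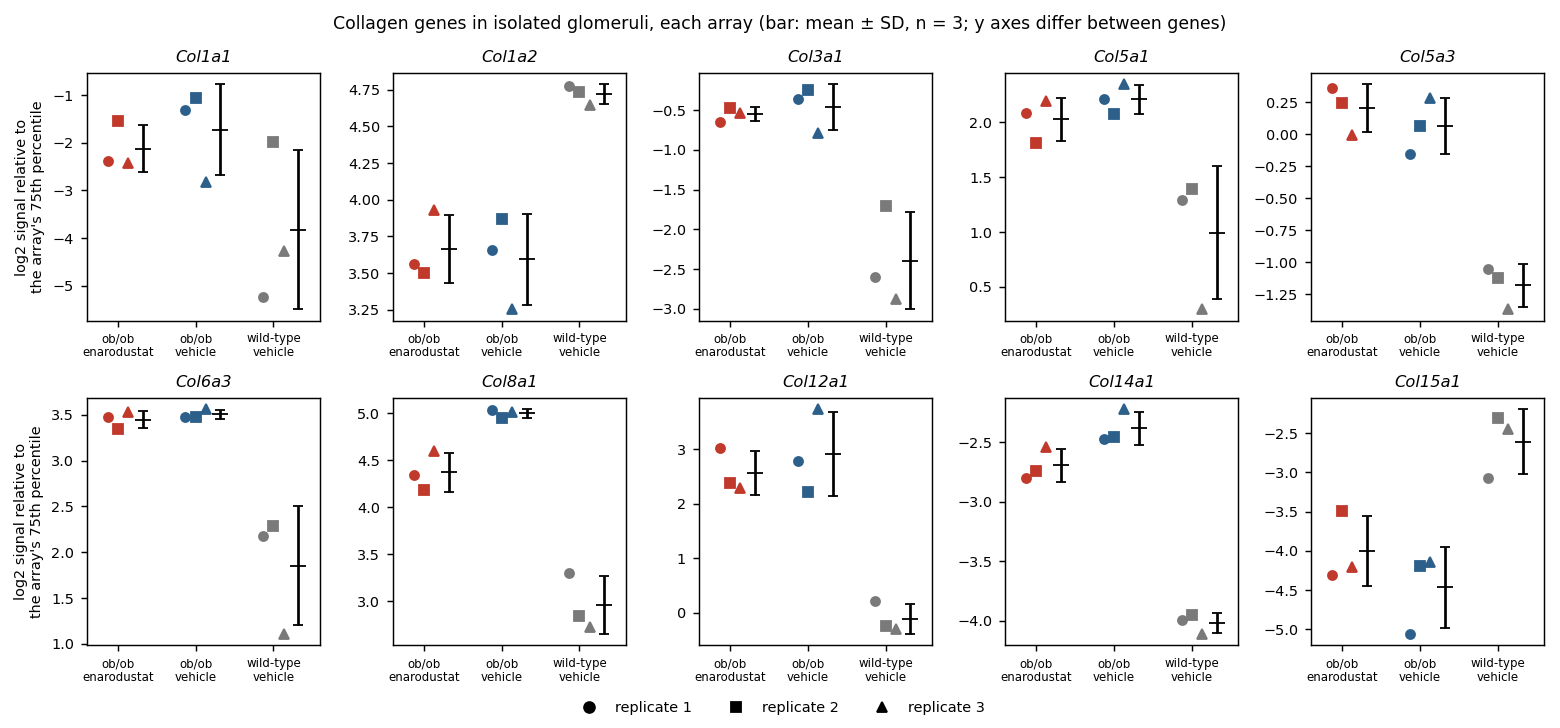
Log2 signal of each collagen gene on each array, relative to the array's 75th percentile (y axes differ between genes), with the mean ± SD of each group of 3. Both ob/ob groups lie above the wild-type arrays for 7 genes and below them for Col1a2 and Col15a1, while the groups of Col1a1 overlap with wild-type replicate 2 at -1.97.

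The 2 chains of type I collagen, the main fibril protein of scar tissue, gave opposite signs. Col1a2, which encodes the alpha 2 chain, was 3.56, 3.50 and 3.93 with enarodustat, 3.66, 3.87 and 3.25 in ob/ob vehicle glomeruli and 4.78, 4.74 and 4.64 in wild-type glomeruli. Every ob/ob array was below every wild-type array, and the wild-type values lay close together. The log2 change was -1.06 ± 0.18 with enarodustat (adjusted p = 0.0102) and -1.13 ± 0.18 with vehicle (adjusted p = 0.0085, 2.18-fold lower), both against wild type. Read from the mean of its 3 kept probes, Col1a2 was at -0.77 with enarodustat (adjusted p = 0.151) and -1.18 with vehicle (adjusted p = 0.0535), past the threshold in neither.

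Col1a1, which encodes the alpha 1 chain, was -2.39, -1.54 and -2.43 with enarodustat, -1.30, -1.06 and -2.81 in ob/ob vehicle glomeruli and -5.22, -1.97 and -4.27 in wild-type glomeruli. Wild-type replicate 2 was higher than 2 of the enarodustat arrays and 1 of the ob/ob vehicle arrays, so the groups overlapped. The log2 change from wild type was 1.70 ± 0.79 with enarodustat (adjusted p = 0.208) and 2.10 ± 0.79 with vehicle (adjusted p = 0.152). Without wild-type replicate 2 the change was 2.63 with enarodustat (adjusted p = 0.0432) and 3.02 with vehicle (adjusted p = 0.0328), both past the threshold. The wild-type arrays then left were dim, at 8.7 and 10.9 units, and the probe passed the signal filter through the ob/ob groups alone. Those values are thus no support for a difference. Without wild-type replicate 1 the change was 1.00 with enarodustat and 1.40 with vehicle, and neither passed. The probe was well above background on all 6 ob/ob arrays and on 2 of the 3 wild-type arrays.

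Col1a1 is a gene for which the array carries its own repeat measurement. A pair of its probes, which share 20 bases on mm9 chromosome 11, is printed at 10 spots each, of which those not marked as outliers were used. The probe that stands for the gene had a median spot signal of 47.6, 79.5 and 45.4 units on the enarodustat arrays, 130.5, 135.6 and 36.8 units on the ob/ob vehicle arrays and 8.27, 80.2 and 10.3 units on the wild-type arrays. On wild-type replicate 2 its 10 spots ranged from 73.1 to 88.9 units, while the highest spot on the other 2 wild-type arrays was 13.7 units. The high value of that array was present in all of these spots. The overlapping probe had means of 72.9 units on that array and of 9.28 and 11.2 units on the other wild-type arrays.

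**Figure D2:**
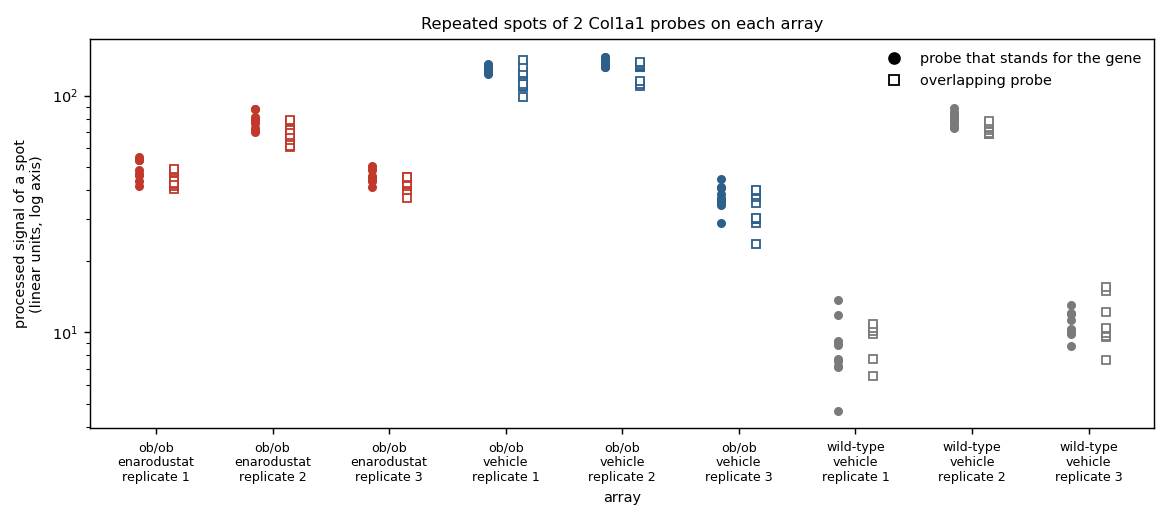
Processed signal (log axis) of each spot of 2 overlapping Col1a1 probes on each of the 9 arrays. The spots of wild-type replicate 1 spread from 4.67 to 13.7 units for the probe that stands for the gene, and wild-type replicate 2, between 73.1 and 88.9 units, lies far above the other 2 wild-type arrays.

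The difference between the chains was also taken on each array. Its absolute size has no meaning, since the probes differ, but its shift between groups does not depend on the constant subtracted from an array. Col1a1 minus Col1a2 was -5.96, -5.04 and -6.36 with enarodustat, -4.96, -4.93 and -6.07 in ob/ob vehicle glomeruli and -10.00, -6.71 and -8.92 in wild-type glomeruli. All 6 ob/ob arrays were above the 3 wild-type arrays. The means were -5.78 ± 0.67 with enarodustat, -5.32 ± 0.65 with vehicle and -8.54 ± 1.68 in wild type, a shift from wild type of 2.76 with enarodustat and 3.22 with vehicle. The size of this shift is approximate. The Col1a1 probe was dim on wild-type replicates 1 and 3, at 8.7 and 10.9 units, and well above background on 2 of the 3 wild-type arrays.

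Col3a1, Col5a1 and Col5a3, which encode chains of the type III and type V collagens that form fibrils together with type I, were higher in ob/ob glomeruli. Col3a1, the single chain of type III, was -0.64, -0.47 and -0.53 with enarodustat, -0.36, -0.24 and -0.79 in ob/ob vehicle glomeruli and -2.60, -1.71 and -2.88 in wild-type glomeruli. Both ob/ob groups were apart from wild type, where replicate 2 was again the highest. The change was 1.85 ± 0.28 with enarodustat (adjusted p = 0.0075) and 1.93 ± 0.28 with vehicle (adjusted p = 0.0064, 3.82-fold).

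Col5a1 and Col5a3 encode chains of type V, which sits inside fibrils and limits their width. Col5a3 was 0.36, 0.25 and 0.00 with enarodustat, -0.15, 0.06 and 0.29 in ob/ob vehicle glomeruli and -1.05, -1.12 and -1.37 in wild-type glomeruli. The ob/ob groups overlapped each other and stood more than a log2 unit above wild type on average, by 1.38 ± 0.16 with enarodustat (adjusted p = 0.0030) and 1.25 ± 0.16 with vehicle (adjusted p = 0.0041). Col5a1 was 2.08, 1.81 and 2.19 with enarodustat, 2.21, 2.08 and 2.34 in ob/ob vehicle glomeruli and 1.29, 1.39 and 0.29 in wild-type glomeruli. The ob/ob groups were separate from wild type, but wild-type replicate 3 lay about a unit below the other wild-type arrays.

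Col5a2, another chain of type V from the list of other collagens, was not called, with 0.20 ± 0.25 for enarodustat (adjusted p = 0.662) and 0.45 ± 0.25 for vehicle (adjusted p = 0.318) against wild type. It was named after these values were seen, as a partner chain.

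The calls of Col5a1 were the weakest of the 9. Its change was 1.04 ± 0.27 with enarodustat (adjusted p = 0.0467) and 1.22 ± 0.27 with vehicle (adjusted p = 0.0319). The enarodustat call was lost without any 1 array other than wild-type replicate 3 (adjusted p between 0.0506 and 0.133). Without that array it held at 0.69. The vehicle call was lost without any 1 of the 3 ob/ob vehicle arrays and without enarodustat replicate 1 (adjusted p between 0.0529 and 0.0958).

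Col6a3 encodes the largest chain of type VI collagen, whose filaments anchor cells to the fibrils. It was 3.47, 3.34 and 3.53 with enarodustat, 3.48, 3.48 and 3.56 in ob/ob vehicle glomeruli and 2.17, 2.29 and 1.11 in wild-type glomeruli. The 6 ob/ob arrays lay within a narrow band above all wild-type arrays, and wild-type replicate 3 was the lowest. The change was 1.59 ± 0.28 with enarodustat (adjusted p = 0.0108) and 1.65 ± 0.28 with vehicle (adjusted p = 0.0102). The junction-spanning probe shown above also passed against wild type, with 0.97 ± 0.21 for vehicle (adjusted p = 0.0282), and another Col6a3 probe did not, with 0.69 ± 0.25 (adjusted p = 0.140).

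Col6a1 and Col6a2, the partner chains of Col6a3, are not among the 10 genes and were taken from the list of other collagens. Neither was called. Col6a1 was at 0.52 ± 0.38 with enarodustat (adjusted p = 0.433) and 0.27 ± 0.38 with vehicle (adjusted p = 0.720) against wild type. Col6a2 was at -0.08 ± 0.19 with enarodustat (adjusted p = 0.818) and -0.07 ± 0.19 with vehicle (adjusted p = 0.859). Their names were chosen after these values were seen, for their place in the same protein.

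Col8a1 encodes a chain of type VIII, a short collagen of vessel walls and endothelial membranes. It was 4.34, 4.18 and 4.60 with enarodustat, 5.03, 4.95 and 5.01 in ob/ob vehicle glomeruli and 3.31, 2.84 and 2.73 in wild-type glomeruli. The 3 groups did not overlap with each other, and the enarodustat arrays lay between the others. Enarodustat and vehicle were separate for 16.0% of all features, and the difference of Col8a1 between them was not called. The change from wild type was 1.41 ± 0.17 with enarodustat (adjusted p = 0.0035, 2.67-fold) and 2.04 ± 0.17 with vehicle (adjusted p = 0.0011, 4.11-fold).

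Col12a1 and Col14a1 encode types XII and XIV, which coat fibrils and link them to other matrix. Col12a1 was 3.02, 2.38 and 2.30 with enarodustat, 2.79, 2.22 and 3.73 in ob/ob vehicle glomeruli and 0.21, -0.25 and -0.29 in wild-type glomeruli. All ob/ob arrays were far above wild type, and ob/ob vehicle replicate 3 was the highest. Of the 10 genes, it had the largest change from wild type, 2.68 ± 0.37 with enarodustat (adjusted p = 0.0054, 6.39-fold) and 3.02 ± 0.37 with vehicle (adjusted p = 0.0037, 8.13-fold). Its other tested probe, on mm9 chromosome 9 with 60 bases over 790 bases of genome, gave 2.57 ± 0.43 for vehicle (adjusted p = 0.0107).

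Col14a1, read from the glycine-step probe, was -2.80, -2.74 and -2.54 with enarodustat, -2.47, -2.45 and -2.22 in ob/ob vehicle glomeruli and -3.99, -3.95 and -4.11 in wild-type glomeruli. The 3 groups did not overlap, with the enarodustat arrays again in the middle. Here too the difference between enarodustat and vehicle was not called. The change from wild type was 1.32 ± 0.12 with enarodustat (adjusted p = 0.0017) and 1.64 ± 0.12 with vehicle (adjusted p = 0.0007), with the smallest SE of the 10 genes. These are dim signals, 34.3 to 42.5 units with enarodustat, 52.8 to 57.9 units with vehicle and 12.2 to 20.4 units in wild type. With normexp background correction and quantile normalization, the change was 0.45 with enarodustat (adjusted p = 0.0038) and 0.62 with vehicle (adjusted p = 0.0013).

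Col15a1 encodes type XV, which carries an endostatin-like fragment and links basement membranes to fibrils. It was -4.31, -3.49 and -4.20 with enarodustat, -5.06, -4.20 and -4.13 in ob/ob vehicle glomeruli and -3.08, -2.30 and -2.44 in wild-type glomeruli. Every ob/ob array was below every wild-type array, and the ob/ob groups overlapped. The change was -1.40 ± 0.33 with enarodustat (adjusted p = 0.0324) and -1.86 ± 0.33 with vehicle (adjusted p = 0.0125, 3.62-fold lower). Its signals are dim, 12.9 to 20.4 units with enarodustat, 9.64 to 15.8 units with vehicle and 38.6 to 63.9 units in wild type. With normexp background correction and quantile normalization, the change was -0.49 with enarodustat and -0.56 with vehicle, so its size is approximate. Leaving out any of wild-type replicates 2 and 3 and enarodustat replicates 1 and 3 ended the enarodustat call (adjusted p between 0.0836 and 0.103). Leaving out wild-type replicate 2 ended the vehicle call (adjusted p = 0.0504). A second probe was well above background on all 3 wild-type arrays, on 1 ob/ob vehicle array and on no enarodustat array, and did not pass (-1.62 ± 0.85 with vehicle, adjusted p = 0.293).

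**Figure D3:**
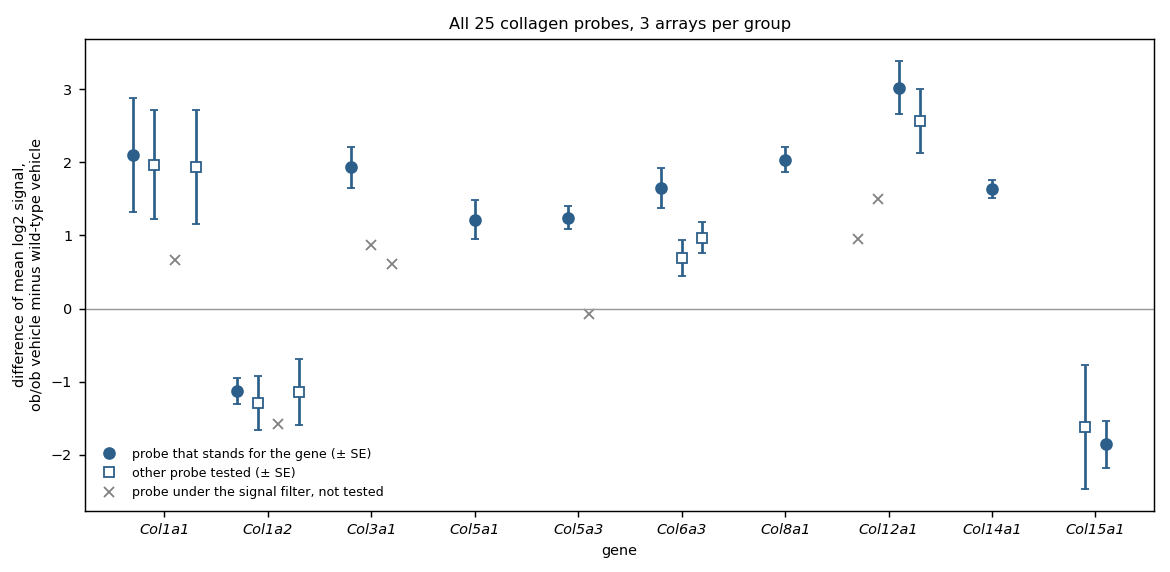
Difference of mean log2 signal, ob/ob vehicle minus wild-type vehicle, for each of the 25 probes, with the SE where the probe was tested (circles stand for the gene). Col1a1, Col1a2, Col6a3, Col12a1 and Col15a1 have further tested probes, which share the sign of the probe that stands for the gene. Each of the other genes has a single tested probe. The crosses are 7 probes that did not pass the signal filter.

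Of the 25 probes, 18 passed the signal filter, and for 13 the signal stood well above background throughout the 9 arrays. In a fit with each probe as a feature, genes with several tested probes had the same sign in all of them in ob/ob vehicle against wild type. The 3 tested Col1a1 probes gave 1.93 to 2.10, and none was called. The untested probes were of Col1a1, Col1a2, Col3a1, Col5a3 and Col12a1, and of these only the Col5a3 probe carries a RefSeq mRNA accession. The junction-spanning Col5a3 probe shown above was well above background on 1 of 9 arrays, at 3.70 to 12.3 units with enarodustat, 3.79 to 7.89 units with vehicle and 5.28 to 7.68 units in wild type, so its values hold no comparison.

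The effect of enarodustat was tested between the treated and the vehicle ob/ob glomeruli. No collagen was called, and limma called 0 of all 24154 features (0.0%), while 1695 features had an unadjusted p under 0.05. Of the 10 collagens 3 were higher and 7 lower by sign, with a median log2 change of -0.13 (-0.03 over all features). The groups did not overlap for Col8a1 and Col14a1, where 16.0% of all features were separate. This comparison shares the ob/ob vehicle arrays with the comparison of genotypes, so an array that is high there moves both.

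Col8a1 had the smallest p, with a log2 change of -0.62 ± 0.17 (95% interval -1.02 to -0.23, unadjusted p = 0.0059, adjusted p = 0.681). Col14a1 followed with -0.31 ± 0.12 (interval -0.59 to -0.03, unadjusted p = 0.0322, adjusted p = 0.707). Both had the enarodustat arrays below all vehicle arrays, and neither passed the adjustment over all features. Enarodustat replicate 3 was hybridised on a slide of its own, with the other 8 arrays on 1 slide. Within that slide the changes were -0.74 for Col8a1 (adjusted p = 0.773) and -0.39 for Col14a1 (adjusted p = 0.867). Tubule markers moved in the same comparison. All 7 distal nephron markers were higher by sign with enarodustat, with a median log2 change of 2.44 and none called, and the log2 of their summed level was 5.73 to 6.71 with enarodustat and 2.10 to 4.70 with vehicle. Their part in the values of Col8a1 and Col14a1 was not tested.

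For the other 8 genes the 95% interval of the difference includes 0. It was -0.34 to 0.48 for Col1a2, -0.22 to 0.50 for Col5a3, -0.69 to 0.57 for Col6a3, -0.73 to 0.56 for Col3a1 and -0.80 to 0.44 for Col5a1. These 5 intervals lie within a log2 unit of 0 on both sides. The intervals were wider for Col12a1 (-1.19 to 0.49), for Col15a1 (-0.28 to 1.21) and for Col1a1 (-2.19 to 1.41), which pass a log2 unit on at least 1 side. An adjusted p above the threshold does not show that the groups were equal.

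**Figure D4:**
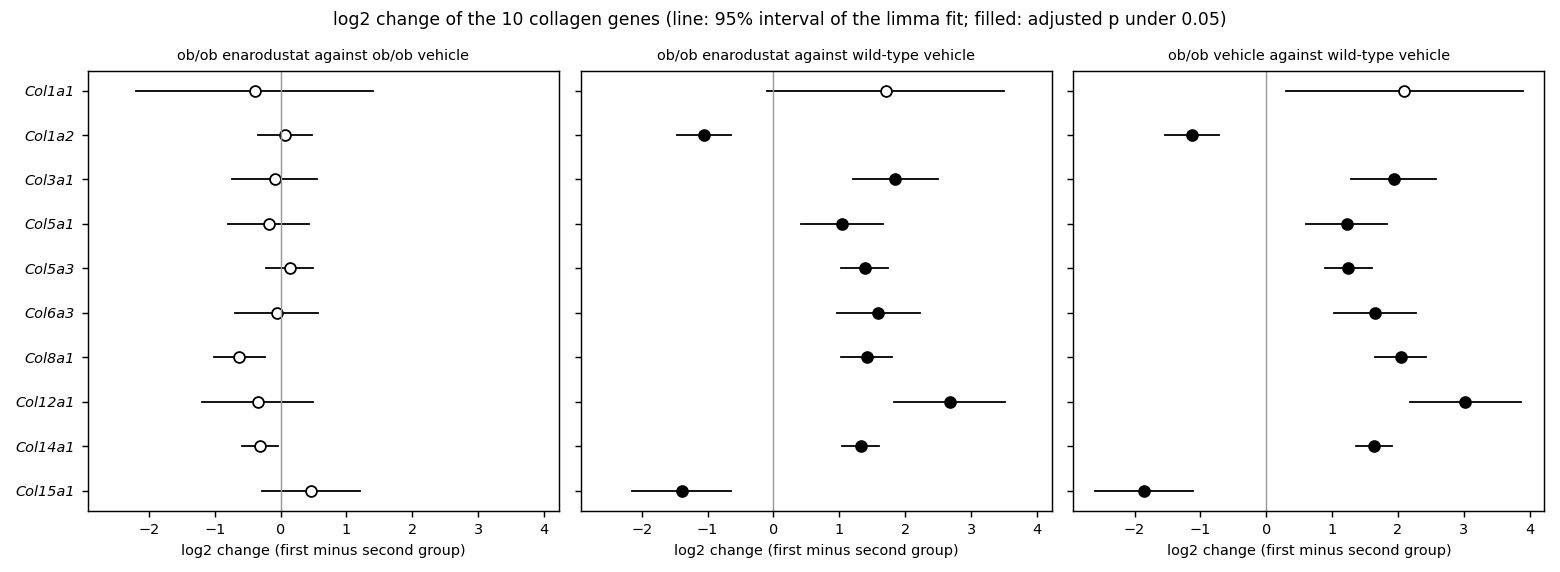
Log2 change of the 10 collagens in the 3 comparisons, as points with 95% intervals of the limma fit, filled where the adjusted p is under 0.05. Of the 10 genes, 9 are filled against wild type in both ob/ob groups and none is filled between enarodustat and vehicle, where Col8a1 (-0.62) and Col14a1 (-0.31) have intervals below 0.

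Promoters are shown for the genes in which the core letters of the HIF binding motif (ACGTG or GCGTG) were found. Col8a1 is shown beside them, since its enarodustat arrays lay apart from vehicle, as held for 16.0% of all features. Its difference was not called. RefSeq sequence on build GRCm38.p6 was given for 7 of the 10 genes, and the 250 bases before the transcript start were searched on both strands. The letters ACGTG were in 2 of the 7 windows, Col1a2 and Col5a1, and in 16.6% of 32851 promoters. The letters GCGTG were in 1 of the 7, Col5a3, and in 28.2% of all promoters. CCAAT was in the windows of Col1a2 and Col5a3 and in 33.8% of all promoters, and TATAAA in that of Col3a1 and in 12.4%. No match overlapped another. The capitals mark these matches, where CACGT is ACGTG on the other strand.
Col1a2: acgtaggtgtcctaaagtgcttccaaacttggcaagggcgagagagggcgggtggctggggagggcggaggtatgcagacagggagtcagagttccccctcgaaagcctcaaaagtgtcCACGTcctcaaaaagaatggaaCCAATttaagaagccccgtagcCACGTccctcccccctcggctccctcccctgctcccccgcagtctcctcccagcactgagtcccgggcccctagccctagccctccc
Col5a1: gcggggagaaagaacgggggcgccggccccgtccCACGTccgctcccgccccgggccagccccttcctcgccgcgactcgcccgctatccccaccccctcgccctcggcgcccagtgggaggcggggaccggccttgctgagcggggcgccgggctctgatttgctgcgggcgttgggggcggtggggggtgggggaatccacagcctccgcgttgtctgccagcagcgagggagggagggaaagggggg
Col5a3: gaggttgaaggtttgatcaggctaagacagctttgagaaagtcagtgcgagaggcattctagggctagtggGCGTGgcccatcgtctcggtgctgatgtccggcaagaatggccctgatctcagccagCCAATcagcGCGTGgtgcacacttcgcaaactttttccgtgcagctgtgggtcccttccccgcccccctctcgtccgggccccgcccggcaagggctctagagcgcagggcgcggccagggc
Col8a1: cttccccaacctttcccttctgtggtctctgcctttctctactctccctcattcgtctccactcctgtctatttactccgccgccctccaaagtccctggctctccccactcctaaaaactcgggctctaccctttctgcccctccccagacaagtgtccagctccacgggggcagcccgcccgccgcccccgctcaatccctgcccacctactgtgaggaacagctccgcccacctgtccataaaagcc
The windows are chr6:4505368-4505617 (plus strand) for Col1a2, chr2:27886175-27886424 (plus strand) for Col5a1, chr9:20815068-20815317 (minus strand) for Col5a3 and chr16:57754738-57754987 (minus strand) for Col8a1. In the Col1a2 window the matches of the HIF letters begin at positions -131 and -87 from the start and that of CCAAT at -109. In the Col5a3 window the HIF letters begin at -179 and -113 and CCAAT at -122. A match of letters is not a bound site. With enarodustat against vehicle Col1a2 differed by 0.07 ± 0.18, Col5a1 by -0.18 ± 0.27 and Col5a3 by 0.14 ± 0.16, and none was called.

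Other collagens, without type IV but with Col18a1 of basement membranes, were measured for 20 of 28 genes. In ob/ob vehicle against wild type 4 were called higher and 2 lower, with a median log2 change of 0.17. Among all features 4.88% were called higher and 2.66% lower. Col13a1, a transmembrane collagen, changed by 1.21 ± 0.20 (adjusted p = 0.0091). Col11a1, a fibrillar chain of cartilage, changed by 1.94 ± 0.42 (adjusted p = 0.0284), Col16a1, a fibril-associated collagen, by 0.96 ± 0.22 (adjusted p = 0.0335) and Col2a1, the cartilage fibril chain, by 1.36 ± 0.34 (adjusted p = 0.0496). Col2a1 falls outside the rule for naming genes and was added to complete the 4. It was well above background on 1 of the 3 wild-type arrays and passed the signal filter through the ob/ob groups alone. Its call is therefore weak support, and the size of its change is approximate. Those that were lower were Col20a1, a fibril-associated collagen (-1.20 ± 0.18, adjusted p = 0.0064) and Col25a1, a transmembrane collagen (-1.45 ± 0.33, adjusted p = 0.0331).

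In enarodustat against wild type, 3 other collagens were called higher, Col13a1, Col16a1 and Col11a1, and the same 2 lower, with a median of 0.05. Among all features 6.11% were called higher there and 4.09% lower. Between enarodustat and vehicle none was called. The smallest p there was that of Col11a2, a partner chain of type XI, at -4.53, -4.52 and -4.35 with enarodustat and -3.81, -3.50 and -3.78 with vehicle. These are separate groups of dim values, well above background on 1 enarodustat and 3 vehicle arrays. The change was -0.77 ± 0.12 (unadjusted p = 0.000175, adjusted p = 0.376).

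In ob/ob vehicle against wild type 4.88% of all features were called higher and 2.66% lower. Of 19 measured enzymes and chaperones that fold and modify collagen chains, 3 were called higher and none lower there, with a median of 0.24. They were P3h4 (0.74 ± 0.12, adjusted p = 0.0082) and Fkbp10 (1.18 ± 0.25, adjusted p = 0.0275), which assist lysine hydroxylation, and Colgalt1 (0.56 ± 0.12, adjusted p = 0.0272), which adds galactose to hydroxylysine. In enarodustat against wild type 6.11% of all features were called higher and 4.09% lower. Of the list 4 were called higher there, the same 3 and P3h3 (0.90 ± 0.21, adjusted p = 0.0342). Here 2 were lower, Creb3l1, a transcription factor of collagen-secreting cells (-1.16 ± 0.23, adjusted p = 0.0171), and Colgalt2 (-0.65 ± 0.15, adjusted p = 0.0304).

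P4ha1, P4ha2 and Plod2, known targets of HIF that hydroxylate collagen, were looked up for that reason after the values had been seen. Between enarodustat and vehicle their log2 changes were 0.14 ± 0.21 (adjusted p = 0.883), 0.09 ± 0.19 (adjusted p = 0.931) and -0.21 ± 0.23 (adjusted p = 0.837). Their groups overlapped. No gene of the folding list was called in that comparison, where the smallest p was that of Creb3l1, with 0.02, 0.44 and 0.39 with enarodustat and 0.49, 1.33 and 1.28 with vehicle, in separate groups (change -0.75 ± 0.23, adjusted p = 0.681).

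The genes that trim procollagen and cross-link fibrils held 6 called of 13 measured in ob/ob vehicle against wild type, all higher, with a median of 0.81. Of all features 4.88% were called higher. The procollagen N-proteinase genes Adamts14 (1.34 ± 0.14, adjusted p = 0.0023) and Adamts2 (1.34 ± 0.28, adjusted p = 0.0251) and the C-proteinase gene Bmp1 (0.81 ± 0.17, adjusted p = 0.0248) were called. So were the cross-linking enzymes Loxl2 (1.63 ± 0.23, adjusted p = 0.0059) and Tgm2 (1.00 ± 0.15, adjusted p = 0.0067). Loxl4, another lysyl oxidase-like enzyme, was not well above background on any wild-type array and passed the signal filter through the ob/ob vehicle arrays alone. It is counted among the 6, but its call rests on wild-type values that were not measured and adds no support. Loxl4 was at least 3.19-fold higher in ob/ob vehicle glomeruli. With enarodustat, where 2 of 3 arrays measured it, it was at least 1.54-fold higher. Such a bound sets the mean of the brighter group against the lowest signal that is well above background on each array of the other, or the probe's own where higher.

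In enarodustat against wild type 6 of the 13 trimming and cross-linking genes were called higher, with a list median of 0.53. Of all features 6.11% were called higher there. The 6 include Tgm2 (1.14 ± 0.15, adjusted p = 0.0047), Adamts14 (1.24 ± 0.14, adjusted p = 0.0030) and Loxl4, with the limit given above. Between enarodustat and vehicle none was called, and Lox, the founding lysyl oxidase, had the smallest p (-0.95 ± 0.42, adjusted p = 0.707). Lox was -3.39, -2.31 and -2.67 with enarodustat and -2.67, -1.85 and -0.99 with vehicle, in overlapping groups.

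Of the fibril-associated proteoglycans and organisers, 4 of 10 measured were called higher in ob/ob vehicle against wild type and none lower. Of all features 4.88% were called higher. Ogn changed by 2.64 ± 0.24 (adjusted p = 0.0015), Prelp by 2.19 ± 0.31 (adjusted p = 0.0060) and Dcn by 1.66 ± 0.38 (adjusted p = 0.0352), all of them small leucine-rich proteoglycans that bind fibrils. Fn1, fibronectin, on which collagen fibrils assemble, changed by 2.52 ± 0.31 (adjusted p = 0.0037). Between enarodustat and vehicle Ogn, Prelp, Dcn and Fn1 lay between -0.01 and 0.34, and none was called. The smallest p in that list was that of Podn, a proteoglycan of the same family (0.83 ± 0.81, adjusted p = 0.828). In enarodustat against wild type the same 4 were called higher, where 6.11% of all features were.

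Among the receptors for collagen 3 of 9 measured were called higher in ob/ob vehicle against wild type and none lower. Of all features 4.88% were called higher. Itga11, the alpha chain of a fibrillar collagen integrin, changed by 3.06 ± 0.50 (adjusted p = 0.0095), Itga1, that of an integrin of mesangial and smooth muscle cells, by 0.87 ± 0.14 (adjusted p = 0.0098), and Lair1, an inhibitory collagen receptor of leukocytes, by 2.70 ± 0.51 (adjusted p = 0.0169). The same 3 were called in enarodustat against wild type, at 2.24 ± 0.50, 0.70 ± 0.14 and 2.76 ± 0.51. There 6.11% of all features were called higher. Lair1 was well above background on 1 of the 3 wild-type arrays and passed the signal filter through the ob/ob groups alone. The Lair1 calls are therefore weak support, and the size of its change is approximate. None was called between enarodustat and vehicle, where the smallest p was that of Ddr1, a collagen-activated receptor kinase (0.26 ± 0.11, adjusted p = 0.707).

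**Figure D5:**
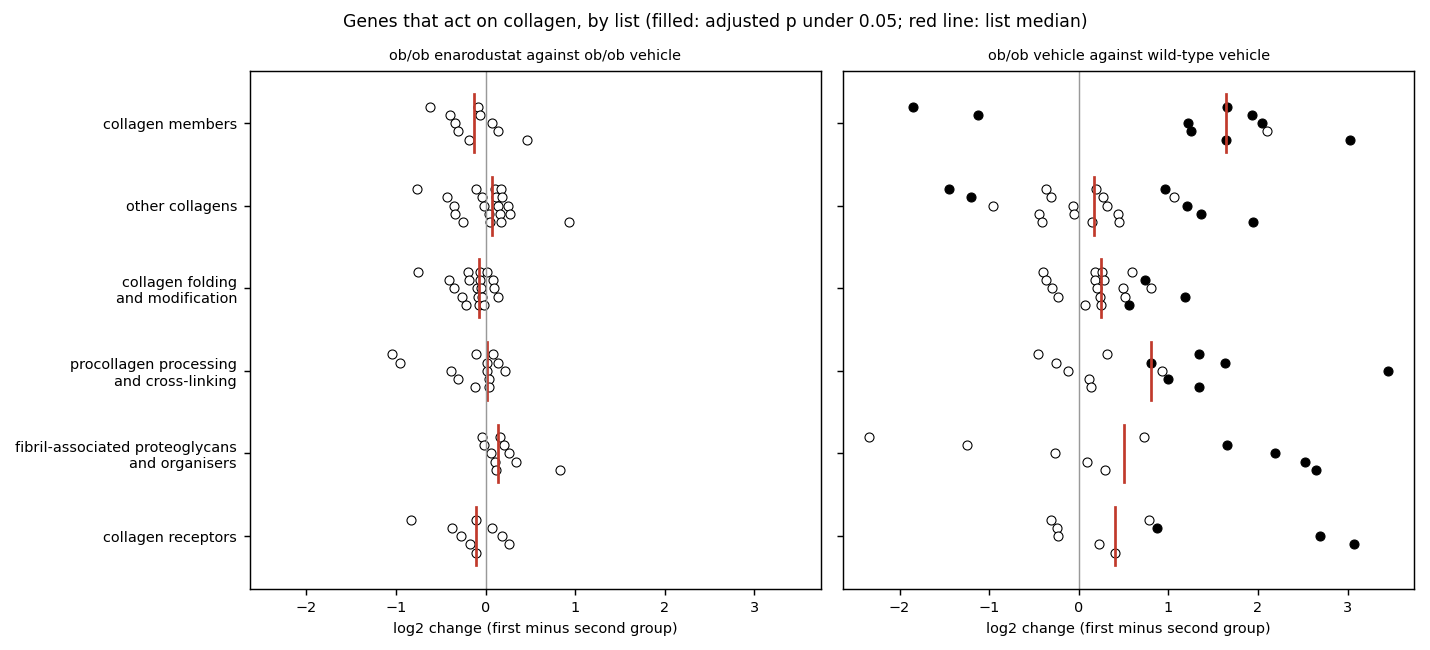
Log2 change of each measured gene in the lists around collagen, in ob/ob enarodustat against ob/ob vehicle (left) and in ob/ob vehicle against wild-type vehicle (right), filled where the adjusted p is under 0.05, with a red line at each list's median. The collagen genes have their median at 1.64 on the right and -0.13 on the left, where no gene is filled.

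Fibroblasts, mesangial cells and smooth muscle all make interstitial collagens, and a sample of isolated glomeruli may hold each of them. In bulk RNA, fewer cells of a type and less RNA per cell cannot be told apart. Of 11 fibroblast markers 7 were measured, and in ob/ob vehicle against wild type Dcn and Fbn1 (1.05 ± 0.25, adjusted p = 0.0388) were called. The median log2 level of the 7 was 2.26 to 2.43 with enarodustat, 2.20 to 2.25 with vehicle and 0.54 to 1.41 in wild type, so both ob/ob groups were above wild type. The log2 of their summed level, most of it from Pi16, was 6.60 to 6.81 with enarodustat, 6.57 to 6.81 with vehicle and 6.45 to 6.62 in wild type. Pi16 averaged 5.96 ± 0.11 with enarodustat, 6.10 ± 0.20 with vehicle and 6.15 ± 0.23 in wild type. Of the others, Dpt was well above background on no array, Lum on 2 of 9, Scara5 on 3 and Mfap5 on 6. In enarodustat against wild type 1 fibroblast marker, Dcn, was called.

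All 7 mesangial markers were measured, and Serpine2 (1.32 ± 0.15, adjusted p = 0.0033) was called in ob/ob vehicle against wild type, as it was with enarodustat (1.16 ± 0.15, adjusted p = 0.0046). The summed mesangial level, which includes Serpine2, was 8.89 to 9.11 with enarodustat, 9.13 to 9.21 with vehicle and 7.86 to 8.58 in wild type. The median level of the 7 overlapped, at 5.53 to 5.87 with enarodustat, 5.54 to 5.92 with vehicle and 4.60 to 5.65 in wild type. Of 5 vascular smooth muscle markers Acta2 was called, with 1.76 ± 0.31 for enarodustat (adjusted p = 0.0116) and 1.91 ± 0.31 for vehicle (adjusted p = 0.0091), and their summed level was 6.04 to 6.44 with enarodustat, 5.55 to 6.55 with vehicle and 4.71 to 5.33 in wild type. Against wild type, 8 of 10 podocyte markers were called lower with enarodustat and 6 with vehicle, where 4.09% and 2.66% of all features were. By sign, all 10 were lower in both. Of 11 macrophage markers 6 were called higher with enarodustat and 8 with vehicle, where 6.11% and 4.88% of all features were. By sign, 11 were higher with enarodustat and 10 with vehicle. The summed level of the macrophage markers was 6.27 to 6.60 with enarodustat, 6.68 to 6.71 with vehicle and 5.84 to 6.18 in wild type. Their median level stood further apart, at 1.14 to 1.77 with enarodustat, 1.63 to 1.86 with vehicle and -0.38 to 0.30 in wild type. The part of these cells in the collagen values was not tested.

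For the proximal tubule no marker was called in ob/ob vehicle against wild type, with a median log2 change of -2.37 over 11 genes. A fit with the mean of these markers as a covariate kept 6 of the 10 collagens past the threshold for vehicle and 8 for enarodustat, against wild type. The same fit called 626 of all 24154 features for vehicle and 2219 for enarodustat. The calls for vehicle that were lost were those of Col1a2 (-1.09, adjusted p = 0.0535), Col5a1 (0.77, adjusted p = 0.0954) and Col15a1 (-1.68, adjusted p = 0.0788). For enarodustat it was Col15a1 (-1.33, adjusted p = 0.0530). No sign against wild type changed. All 11 proximal tubule markers were higher by sign with enarodustat than with ob/ob vehicle, and none was called. With the covariate, the change between these groups was -0.52 for Col8a1 and -0.24 for Col14a1 (adjusted p = 0.934 for both).

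Likeness between the genes was described by Pearson's r over the 9 arrays. It was 0.98 between Col5a1 and Col6a3 and between Col8a1 and Col14a1, 0.95 between Col3a1 and Col6a3 and between Col12a1 and Col14a1, and -0.97 between Col12a1 and Col1a2. These points share the 3 groups, and the values are a description. Col15a1 and Col1a2 correlated at 0.78. Col1a1 had an r of 0.86 to Col3a1 and of 0.53 to Col12a1.

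Among 15332 named genes outside the collagens, the 3 with the highest r to each called collagen over the 9 arrays were picked as nearest in pattern. They were Cd99, Rcn3 and Hoxa11os for Col6a3 (r of 0.99 each) and, for Col5a1, included Hoxa11 and Ikbip (0.99 each). Col8a1 was nearest to Mmd, Rftn1 and Angpt4 (0.99 each), Col14a1 to Ptges3l, Hs6st2 and Celf2 (0.99 each) and Col12a1 to Alox5ap, C1ra and Spink8 (0.98 to 0.99). Col3a1 was nearest to Dennd1c, Prelp and Fn1 (0.98 each), where Prelp and Fn1 are in the organiser list, and Col5a3 to Fam20a, Cyp4f18 and Tpt1 (0.98 each). Of the lower genes, Col1a2 was nearest to Xpnpep2 (0.99), Tmem64 and Cracdl (0.98 each) and Col15a1 to Znrf3 (0.98), Trp53bp2 and Arhgap5 (0.96 each). The likeness is a description of these 9 arrays.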

How the data were processed

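The authors scanned 9 one-colour arrays with Agilent Feature Extraction 11.5.1.1, and the deposited scanner files hold a processed, background-subtracted intensity for each of 62976 spots, per the file headers. The headers place probes on build mm9. The series' value table holds log2 values of the authors with no stated scale. Set against the scanner files, each column matched log2 of its array's processed signal minus the 75th percentile within 0.01 in the median. Column medians were -3.04, -2.95 and -3.05 (enarodustat), -3.10, -3.06 and -3.06 (ob/ob vehicle) and -3.07, -3.03 and -2.93 (wild type). Its scale, centring and direction are thus known from the values. The submitters' processing notes name limma without its role.

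Here 3671 control spots and outlier spots were left out, spots of a probe averaged, and 32 probes with outlier spots alone removed. Log2 signals minus the array's 75th percentile were kept for 36671 probes that stood well above background on all 3 arrays of a group. A gene took its kept probe with the highest mean. Names came from the RefSeq table of GRCm38.p6 by accession (33895 probes), symbol (9464) or synonym (489). Another 2103 probes kept the files' name and 10654 had none. limma 3.58.1 in R 4.3.3 was fitted to 3 groups over 24154 features, with Benjamini-Hochberg adjustment, after a test on simulated data. The genes named from a list are those called in a comparison, up to 5 by smallest p, or else the gene with the smallest p there. Exceptions are stated, and some items are not reported here. The members, lists, alternatives and the rule were chosen with earlier results of these data known. Alternatives covered normalization, background, filters, probes, samples, pairing, slide, array weights, tubule markers, the authors' values and single arrays. Figures used matplotlib 3.10.9 in Python 3.11.15.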

Additional observations from a re-analysis of the deposited data

How the results depend on the processing

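Under 22 alternative settings, 9 of which left out 1 array, no change of a collagen against wild type turned its sign. Col1a1 had a value in 21 of these, since none of its probes was well above background on all 9 arrays. The calls of Col3a1, Col5a3, Col6a3, Col8a1, Col12a1 and Col14a1 held in all 22 settings for both ob/ob groups. Against wild type Col5a1 lost its call in 13 settings for enarodustat and 8 for vehicle, Col15a1 in 8 and 3 and Col1a2 in 1 and 2. Normexp with an offset of 50 and quantile normalization brought Col15a1 to -0.49 with enarodustat and -0.56 with vehicle, Col3a1 to 1.20 and 1.28 and Col1a1 to 0.53 and 0.80. Array weights brought Col1a1 to 0.40 and 0.98. The collagens called numbered 7 to 9 for enarodustat and 6 to 9 for vehicle against wild type, and 7 to 8 and 8 to 9 when single arrays were left out. Features called in enarodustat against wild type, 2464 as reported, were 1229 without the filter on dim probes, where more features were tested, 4527 with array weights and 1365 with the slide as a block, and 1218 (wild-type replicate 2) to 2169 when single arrays were left out, with 1459, 1592 and 1365 without enarodustat replicates 1, 2 and 3. In ob/ob vehicle against wild type, with 1821 as reported, they were 1005 without the filter, 4172 with array weights and 626 with the tubule covariate, and 908 (ob/ob vehicle replicate 1) to 1774 without single arrays, with 1187 and 1116 without ob/ob vehicle replicates 2 and 3 and 968 and 1175 without wild-type replicates 2 and 3. The cause of the other shifts was not tested. Between enarodustat and vehicle no feature was called under any setting. There the sign turned for Col6a3 with the mean of probes (0.045) and the tubule covariate (0.19), for Col5a1 with that covariate (0.10) and for Col1a2 with the slide as a block (-0.061). When single arrays were left out the change ran between -0.10 and 0.21 for Col1a2, between -0.25 and 0.027 for Col3a1 and between -0.69 and 0.063 for Col12a1, none of it called. Col1a1 minus Col1a2 was taken, after seeing the data, under the 21 settings with a Col1a1 value. It stayed between 1.47 and 3.67 for enarodustat and between 2.00 and 4.14 for vehicle against wild type.

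The groups share replicate numbers, and whether the numbers pair the arrays cannot be decided from 3 arrays a group. Deviations of same-numbered arrays correlated at 0.13, 0.27 and -0.04 between enarodustat and vehicle, 0.27, -0.31 and -0.30 between enarodustat and wild type, and 0.17, -0.22 and 0.04 between vehicle and wild type. At most 3 of 6 arrays correlated best with their own number. With the replicate block, 1957 features and 8 collagens were called in enarodustat against wild type, 1407 features and 8 collagens in vehicle against wild type, and 0 between the ob/ob groups. The collagen no longer called was Col5a1 (adjusted p of 0.0822 with enarodustat and 0.0652 with vehicle).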

Other observations

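In wild-type glomeruli the log2 of the summed level of the 7 distal nephron markers was 2.90 to 6.56, a range that overlaps those of both ob/ob groups. Of 5 parietal epithelial markers none was called in any comparison. Of 10 markers of the glomerular endothelium 1 was lower in each ob/ob group against wild type, Cldn5, a tight junction protein (-1.15 ± 0.23 with enarodustat, adjusted p = 0.0181, and -1.22 ± 0.23 with vehicle, adjusted p = 0.0160).

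Some matrix genes had a lower sign in ob/ob glomeruli without passing the test. Postn, a matricellular protein, was -3.54, -3.80 and -3.23 with enarodustat, -3.48, -3.55 and -4.14 with vehicle and -2.12, -1.80 and -3.52 in wild type, where replicate 3 lay among the ob/ob arrays. Its change was -1.04 ± 0.41 with enarodustat (adjusted p = 0.148) and -1.24 ± 0.41 with vehicle (adjusted p = 0.112). It was chosen after its values were seen.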
